A study of Mus musculus with 8 samples.

Results

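The cells described here are 1 Seurat cluster of graft-infiltrating macrophages, the one with the highest level of Cxcl9, a chemokine that recruits T and NK cells through the receptor Cxcr3. They were chosen by a rule on measured values. Among the cells annotated as macrophages, the 6 clusters with at least 50 such cells were compared in their level of Cxcl9 in CPM, that is its UMIs scaled to the same total of UMIs in every population, and the highest was taken. This was cluster 4, with 1735 of 7179 macrophages and of 22441 CD45+ cells in all. Every cell of that cluster carried the macrophage annotation. The other 5 macrophage clusters, with 5444 cells, are called the other macrophages below, and they include the macrophage clusters highest in Arg1 (651 cells) and in Folr2 (551 cells). The level that chose the cluster was 2537 CPM of Cxcl9, and the next macrophage cluster stood at 364 CPM.

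The data came from grafts of NIT-1, a beta cell line derived from the non-obese diabetic (NOD) mouse, that were wild type (WT) or mutant for Rnls, the gene of renalase. The recipients were NOD.scid mice, which lack T and B cells of their own and still have myeloid cells. Each carried a WT and a mutant graft on opposite flanks and received splenocytes of recently diabetic NOD mice, so Rnls was mutated in the grafted beta cells and not in the macrophages. Living CD45+ cells were sorted 10 or 17 days after transfer, the grafts of a genotype and day were marked with 4 hashtag antibodies, and each of the 4 sets was pooled into 1 droplet library. Genotype, day and library therefore cannot be told apart. The graft was the replicate, with 4 grafts per genotype and day and 16 in all, and no label tied a WT graft to the mutant graft of the same mouse. The Rnls mutant cells were 1 cell line, and the mutation could not be checked in the sorted cells, which were not beta cells.

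Cxcl9, Cxcl10 and Cxcl11 are the chemokines induced by interferon gamma (Ifn-gamma). T and NK cells release Ifn-gamma, and the signal of its receptor on a macrophage is read at the GAS element of target genes, whereas type I interferon acts on the related element called ISRE. Macrophages activated in this way produce nitric oxide with Nos2, present antigen on MHC class II and release interleukin 1, and in the insulitis of the NOD mouse such cells have long been known as a component of the infiltrate. Resident macrophages are recognised by another set of genes, which includes Folr2, Mrc1, Selenop and the C1q chains.

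The promoters of Cxcl9, of its chromosomal neighbour Cxcl10, and of 2 further leading genes of the cluster are shown because they carry the letters by which these signals are usually read, or lack them. The sequences are the 250 bases before the start of each gene in RefSeq (build GRCm38.p6), written 5′ to 3′ on the strand of the gene, and capitals mark matches to GAAANNGAA, the core of the ISRE, on either strand. They lie at chr5:92328080-92328329 (minus strand) for Cxcl9, chr5:92348890-92349139 (minus strand) for Cxcl10, chr4:156200819-156201068 (minus strand) for Isg15 and chr13:16011601-16011850 (plus strand) for Inhba.
Cxcl9: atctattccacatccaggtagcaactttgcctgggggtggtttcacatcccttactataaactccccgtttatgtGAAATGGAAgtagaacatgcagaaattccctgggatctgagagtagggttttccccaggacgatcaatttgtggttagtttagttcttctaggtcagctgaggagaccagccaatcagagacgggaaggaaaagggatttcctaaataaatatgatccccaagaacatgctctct
Cxcl10: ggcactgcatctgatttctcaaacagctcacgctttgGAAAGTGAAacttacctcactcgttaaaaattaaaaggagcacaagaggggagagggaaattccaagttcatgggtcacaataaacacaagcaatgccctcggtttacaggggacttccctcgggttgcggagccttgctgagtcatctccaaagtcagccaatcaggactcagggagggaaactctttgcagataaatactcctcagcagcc
Isg15: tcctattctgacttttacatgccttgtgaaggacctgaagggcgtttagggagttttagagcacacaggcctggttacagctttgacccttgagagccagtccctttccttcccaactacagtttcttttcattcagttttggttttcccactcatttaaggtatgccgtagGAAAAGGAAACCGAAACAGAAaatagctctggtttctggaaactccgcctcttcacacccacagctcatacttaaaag
Inhba: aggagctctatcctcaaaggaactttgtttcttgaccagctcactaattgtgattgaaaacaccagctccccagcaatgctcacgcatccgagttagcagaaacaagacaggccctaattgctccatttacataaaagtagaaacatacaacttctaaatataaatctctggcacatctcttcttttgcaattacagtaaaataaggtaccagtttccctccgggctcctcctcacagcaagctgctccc
The match in the Cxcl9 window begins 175 bases before the start, that of Cxcl10 213 bases before it, and Isg15 holds 3 overlapping matches at 78, 72 and 66 bases. Inhba holds none. Of Cxcl10 and the 15 leading genes named below, 16 genes in all, 13 had a promoter in the table, and 4 of them held GAAANNGAA, the fourth being Tma16. TTCNNNGAA, the core of the GAS element, which reads the same on both strands, stood in 0 of the 13 windows. Among all 32851 promoters of this length 7.13% held GAAANNGAA and 7.02% held TTCNNNGAA. A match in letters is not a binding site, and the absence of a match says only that the letters are not in this window.

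The 4 libraries held 2690 to 7617 cells. The cluster had 120 cells in the WT day 17 library, and 742 in mutant day 10, 701 in WT day 10 and 172 in mutant day 17. Median UMIs per member were 5552 in mutant day 10, 5722 in WT day 10, 5219 in mutant day 17 and 11096 in WT day 17 grafts, and the WT day 17 library therefore stood apart in depth. Of the members, 9 had a barcode that also occurred in another library. With both days pooled, at least 2 UMIs of the 20 T and NK cell markers were found in 206 members (11.9%) and in 212 other macrophages (3.89%). Members were mostly from day 10 and other macrophages mostly from day 17, so this gap mixes cluster and day. At day 10 the cluster was on average 67.9% of the macrophages in mutant grafts, and 68.1% without such cells. In WT grafts it was 51.5% and 50.6%. Each count below was also made without these cells.

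All 9 macrophage markers (among them Adgre1, Cd68, Csf1r, Itgam and Lyz2) were detected in the cluster in every library. Their summed level was 8795 to 14004 CPM per graft at day 10 and 24067 to 30522 CPM at day 17. In the other macrophages it was 12018 to 20506 CPM and 18215 to 23318 CPM. Lyz2, at 12118 CPM over all members, was the largest part of this sum. Over both days, 2 of the 9 markers were more than 2-fold below the other macrophages and 0 above, with a median log2 ratio of -0.55. Adgre1 stood at 90.2 against 273 CPM. Markers of other cells were low by comparison. The 12 T cell markers summed to at most 33.0 CPM in any graft and the 10 beta cell markers to at most 5.65 CPM. NK cell markers reached 85.9 CPM at day 10 and 26.8 CPM at day 17, B cell markers 105 CPM, granulocyte markers 141 CPM and dendritic cell markers 212 CPM. Dendritic cell markers were at 51.7 to 212 CPM in the members and at 15.4 to 108 CPM in the other macrophages, and 3 of the 10 were more than 2-fold higher in the members.

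Cxcl9 was not confined to the cluster, since monocytes stood at 1515 CPM, dendritic cells at 1950 CPM and granulocytes at 713 CPM, whereas the other 5 macrophage clusters were at 212 to 364 CPM and lymphocytes at or below 17.2 CPM. In each of the 13 grafts with at least 10 members, the cluster had the highest Cxcl9 level of the macrophage clusters with at least 10 cells. This rank is a description only, since the cluster was chosen by Cxcl9 in the same cells. In WT day 10 grafts it was 2278, 4312, 4004 and 3479 CPM, and in mutant day 10 grafts 1697, 1720, 2344 and 3407 CPM. In WT day 17 grafts it was 2702 and 1218 CPM, and in mutant day 17 grafts 2430, 817 and 2461 CPM. The level thus stayed above 800 CPM in every graft, and the range of each of the 4 groups overlapped the range of every other group. With every cell thinned to 1000 UMIs, 57.1% of members (95% exact binomial interval 54.8 to 59.5) held a Cxcl9 UMI, against 75.6% unthinned. In CD4 T cells, which should lack the gene, the share was 1.37% thinned and 3.40% unthinned, with median depths of 5758 and 2824 UMIs in the 2 cell types. The thinned share by library, from a separate random draw, was 67.9% in WT day 10, 55.9% in mutant day 10, 44.2% in WT day 17 and 33.1% in mutant day 17 members. All such intervals cover counting error only.

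**Figure D1:**
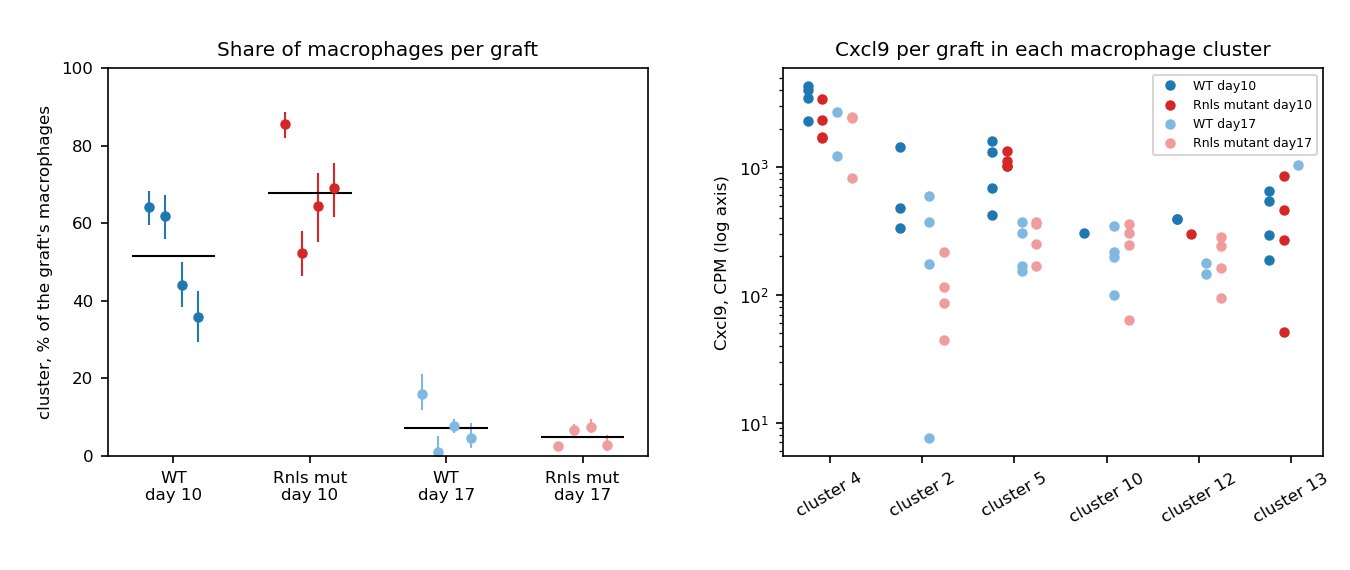
Left, share of cluster 4 among the macrophages of each graft in percent (points, with 95% exact binomial intervals, and black lines for the mean of 4 grafts); right, Cxcl9 in CPM on a log axis for each graft with at least 10 cells in each macrophage cluster. At day 10 the shares lie between 35.8% and 85.7% and at day 17 between 0.935% and 16.03%, and cluster 4 stands at 817 to 4312 CPM of Cxcl9.

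The genes that led the cluster are given as a description, because the clusters had been made from these values. Levels given for a whole population pool both days, with members mostly from day 10 and other macrophages mostly from day 17. Day 10 had 742 mutant and 701 WT members against 304 and 592 other macrophages. Day 17 had 172 and 120 against 3218 and 1330. The ratios therefore mix cluster and day. In day 10 grafts Gm15056 was at 1769 to 3766 CPM in members and 36.3 to 572 CPM in other macrophages. Isg15 was at 270 to 1091 CPM and 126 to 656 CPM there. Of 2889 genes with at least 50 CPM in the members, 161 were more than 2-fold above the other macrophages. The chemokine Ccl5, which attracts T cells, stood at 3579 CPM in the members against 449 CPM in the other macrophages, and Cxcl10 at 935 against 167 CPM. Nos2, the inducible nitric oxide synthase, was at 241 against 26.3 CPM. Ass1, an enzyme in the regeneration of the arginine that Nos2 uses, was at 443 against 62.9 CPM. Nos2 and Ass1 were thus both among the 15 leading genes. Il1b stood at 2167 against 382 CPM and its natural antagonist Il1rn at 1003 against 157 CPM, so agonist and antagonist were both high in the summed counts of the cluster. Inhba, the subunit of activin A, had 833 against 27.0 CPM, and Isg15, a ubiquitin-like protein induced by interferon, 708 against 109 CPM. Slpi, an inhibitor of leukocyte proteases, was at 855 against 79.4 CPM, and Procr, the endothelial protein C receptor, at 134 against 4.92 CPM. The predicted gene Gm15056 had the largest ratio, with 2377 against 89.2 CPM, and AA467197, Ly6i, Mcemp1 and Tma16 completed the 15.

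Il1b was higher still in granulocytes, with 15436 CPM, and lower in dendritic cells (1020 CPM) and monocytes (729 CPM). Acod1, the enzyme that makes itaconate and not one of the 15, was at 4371 CPM in granulocytes against 235 CPM in the members. Dendritic cells had 0.364 CPM of Nos2, 12.6 CPM of Inhba and 56.8 CPM of Slpi. Monocytes had 29.02 CPM of Nos2, 75.7 CPM of Inhba and 296 CPM of Slpi. Among the populations annotated as monocytes, dendritic cells and granulocytes, none reached the 241 CPM of Nos2 or the 833 CPM of Inhba seen in the cluster. Other leading genes were higher elsewhere. Granulocytes had 2809 CPM of Isg15, 2262 CPM of Il1rn, 301 CPM of Mcemp1 and 312 CPM of AA467197, against 708, 1003, 106 and 249 CPM in the members. Ccl5 was at 15009 CPM in CD8 T cells and 11761 CPM in NK cells, against 3579 CPM in the members.

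**Figure D2:**
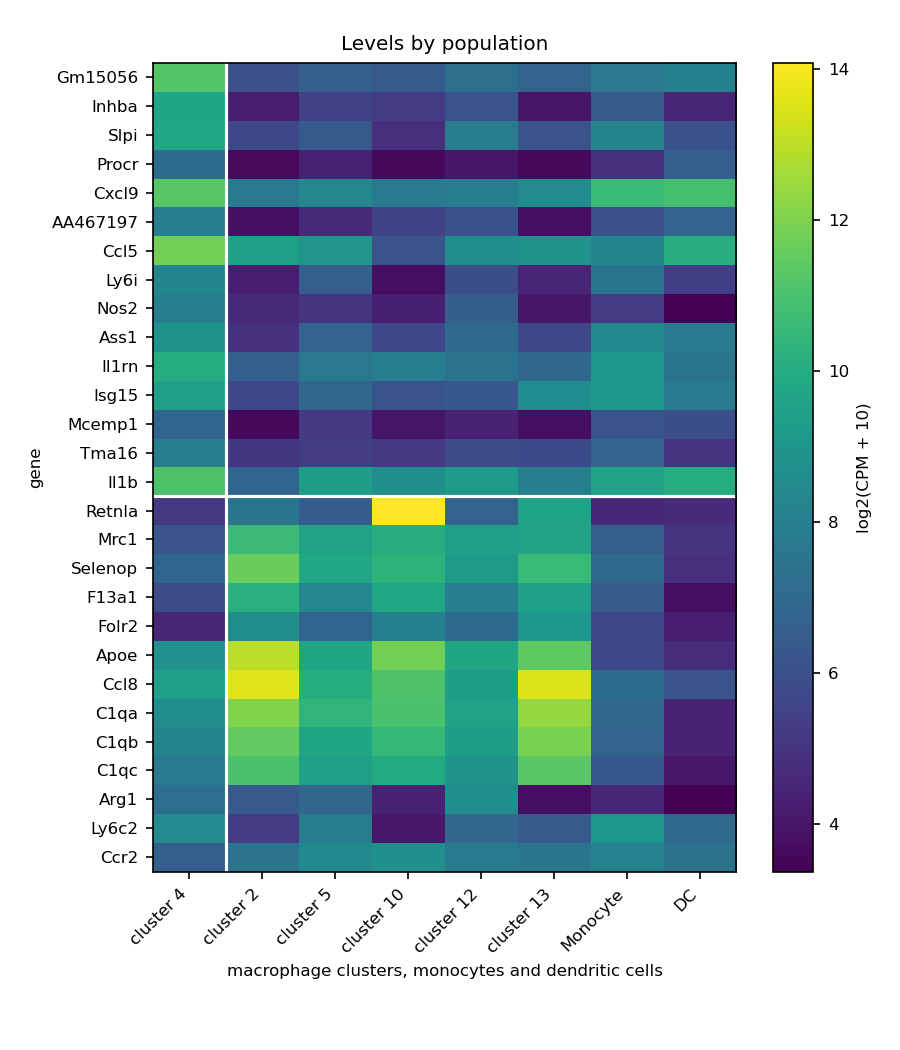
Levels as log2(CPM + 10) of the 15 leading genes of cluster 4 (above the white line) and of 13 resident, alternatively activated and monocyte genes (below it) in the macrophage clusters, monocytes and dendritic cells. Cluster 4 is the first column; Gm15056, Inhba and Nos2 are at 2377, 833 and 241 CPM there, and Retnla is at 25.6 CPM there and at 17357 CPM in cluster 10.

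Genes of resident macrophages were at the lower end. In the list of 21 resident macrophage genes, 16 were more than 2-fold below the other macrophages and 1 above, with a median log2 ratio of -2.44, compared with 207 higher, 373 lower and a median of -0.01 over all 20307 genes with a UMI in macrophages. Folr2, a folate receptor, had 13.6 against 274 CPM, the mannose receptor Mrc1 63.0 against 1041 CPM, and Selenop, a selenium carrier, 106 against 1647 CPM. The complement chain C1qa had 386 against 2703 CPM and Apoe, the lipid carrier, 428 against 3664 CPM. Retnla, which marks alternative activation, was among the lowest with 25.6 against 3331 CPM. In the list of alternative activation and hypoxia-linked genes, however, 7 of 19 genes were more than 2-fold higher in the cluster and 4 lower, with a median log2 ratio of 0.64. Arg1, which competes with Nos2 for arginine, was at 141 against 115 CPM with both days pooled. This near equality did not hold in mutant day 10 grafts, with 132 to 381 against 0 to 64.3 CPM. In WT day 10 grafts the ranges overlapped, at 9.21 to 160 against 0 to 67.2 CPM. They also overlapped in the day 17 grafts, at 0 to 142 against 2.71 to 295 CPM.

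Of the other lists, 7 of 16 macrophage effector enzymes, 5 of 22 cytokines, 7 of 44 Ifn-gamma response genes and 4 of 40 type I interferon response genes were more than 2-fold higher than in the other macrophages, with medians of 0.55, 0.27, 0.37 and 0.27 on the log2 scale, where all genes had 207 higher of 20307 and genes with at least 50 CPM in the members 161 of 2889. MHC class II genes had 0 of 12 higher and 1 lower, and H2-Aa stood at 6869 against 7970 CPM with both days pooled. This direction did not hold within days, where the ranges overlapped. At day 10 H2-Aa was at 5754 to 7252 against 4395 to 6454 CPM in mutant grafts. In WT day 10 grafts it was at 6476 to 7669 against 5998 to 7459 CPM, and at day 17 at 6023 to 10314 against 6536 to 10346 CPM. The 18 glycolysis genes had a median of 0.66 with 1 gene more than 2-fold higher. Among 19 monocyte genes, 4 were higher and 3 lower, with Ly6c2 at 361 against 89.5 CPM and Ccr2 at 89.9 against 261 CPM. The list of 18 other chemokines was divided, with 6 genes higher and 5 lower, and Ccl8 was at 690 against 5684 CPM.

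The first comparison asks how large a part of the macrophages the cluster formed in each graft. At day 10 it was most of the macrophages in 6 of 8 grafts. It formed 85.7%, 52.4%, 64.5% and 69.1% of the macrophages in the mutant grafts (67.9% ± 13.8, SD, n = 4) and 64.2%, 61.9%, 44.2% and 35.8% in the WT grafts (51.5% ± 13.8, SD, n = 4). The ranges overlapped, and the difference of 16.4 percentage points did not pass the test (two-sided exact permutation test, p = 0.143, where 4 against 4 can reach 0.0286). None of the 10 leading genes was called between genotypes over all macrophages at either day, so these shares could be tested. At day 17 the cluster was a small part of the macrophages. It formed 2.46%, 6.67%, 7.56% and 2.86% in mutant grafts (4.89% ± 2.60) and 16.03%, 0.935%, 7.68% and 4.59% in WT grafts (7.31% ± 6.43), and the difference of -2.42 points had an exact permutation p of 0.571. Without WT day 17 replicate 1, which had the 16.03%, the difference was 0.485 points.

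Every day 10 graft was above every day 17 graft in this share. The 10 leading genes of the cluster all differed between days over all macrophages, so the shares of the 2 days are given as values and were not tested. Counted against all CD45+ cells, the cluster made up 11.2% ± 8.22 of mutant and 9.22% ± 5.32 of WT cells at day 10 (exact permutation p = 0.657) and 3.02% ± 1.67 and 3.44% ± 2.57 at day 17 (exact permutation p = 0.743), with 4 grafts each. Macrophages as a whole were 15.9% ± 9.01 and 17.0% ± 6.14 of CD45+ cells at day 10 and 61.1% ± 3.23 and 48.9% ± 23.7 at day 17. Without the cells that held T and NK cell UMIs, the difference in the share of macrophages was 17.4 points at day 10 and -2.07 points at day 17. A share does not tell fewer cells of the cluster from more cells of another kind.

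The second comparison, mutant against WT grafts within the cluster, found few genes. UMIs were summed per graft over the members, which left 13 grafts with at least 10 members (4 mutant and 4 WT at day 10, 3 mutant and 2 WT at day 17) and 7620 genes, and edgeR's quasi-likelihood test was used with Benjamini-Hochberg adjustment over all of them. At day 10, 2 genes passed an adjusted p of 0.05, which is 0.0262% of those tested, and both were lower in mutant grafts. Gm10076, a predicted gene, stood at 216, 259, 217 and 265 CPM in mutant and 401, 493, 506 and 506 CPM in WT grafts. These groups did not overlap (log2 fold change -1.01 ± 0.13 SE, adjusted p = 0.00269). The mitochondrially encoded ATP synthase subunit mt-Atp8 was at 128, 130, 174 and 163 CPM in mutant against 222, 301, 292 and 303 CPM in WT grafts (log2 fold change -0.94 ± 0.15, adjusted p = 0.0293), and its call was lost when mutant replicate 1 or 2 or WT replicate 2, 3 or 4 was left out, with adjusted p of 0.152 to 0.214. In the other macrophages the log2 fold changes were -0.84 and -0.89, with adjusted p of 0.22 and 0.842, and the difference between the populations had adjusted p of 0.965 and 0.992. Gm10076 stayed called under every alternative that could be computed. At day 17 Gm10076 had a log2 fold change of 0.27 ± 0.19 (adjusted p = 0.777), with 172 to 200 CPM in mutant and 154 and 166 CPM in WT grafts. Leaving out mutant replicate 4 raised the count from 2 to 12 genes, and it was 28 by DESeq2 and 108 without the filter on low counts.

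At day 17, 1 gene was called (0.0131%). This was Acod1, which makes itaconate in activated macrophages. It stood at 84.8, 79.4 and 110 CPM in the 3 mutant grafts and at 233 and 265 CPM in the 2 WT grafts, without overlap (log2 fold change -1.42 ± 0.21, adjusted p = 0.0244). At day 10 it had been at 222 to 313 CPM in mutant and 223 to 268 CPM in WT grafts, with a log2 fold change of 0.05 ± 0.14. The test of this change in the genotype effect between days had an adjusted p of 0.0596. In the other macrophages the difference between genotypes at day 17 was -0.64 on the log2 scale (adjusted p = 1). The call was lost when mutant day 10 replicate 3, WT day 10 replicate 2, mutant day 17 replicate 1 or 2, or WT day 17 replicate 1 or 3 was left out, with adjusted p of 0.0517 to 0.194.

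Over both days together 0 genes were called (0%), with 539 at an unadjusted p under 0.05 and 6 called by DESeq2, and 0 genes (0%) were called for a difference of the genotype effect between days, with 627 unadjusted and 29 by DESeq2. The counts at an unadjusted p under 0.05 were 607 at day 10 and 574 at day 17.

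Of the genes tested in the 22 lists, Acod1 at day 17 was the only one called between genotypes. Medians at day 10 were -0.07 for 43 Ifn-gamma response genes, -0.10 for 36 type I interferon response genes, -0.10 for 10 MHC class II genes, 0.10 for 14 effector enzymes and 0.35 for 17 glycolysis genes, against 0.0036 over all genes tested. At day 17 they were -0.48, -0.36, 0.27, -0.18 and -0.35, against -0.00037 over all genes.

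Among the genes followed in any case, Cxcl9 had mean levels of 2292 CPM in mutant and 3518 CPM in WT grafts at day 10 (log2 fold change -0.64 ± 0.31, adjusted p = 0.621, exact permutation p = 0.0857). Cxcl9 and Osm passed an adjusted p of 0.05 only where the filter on low counts was left out or, for Osm, with the hashtag number as a block. Cxcl10 had 980 against 1225 CPM (log2 fold change -0.35 ± 0.33). Osm, the cytokine oncostatin M, was at 213, 143, 135 and 115 CPM in mutant and 110, 95.5, 104 and 37.1 CPM in WT grafts. These values did not overlap, and the exact permutation p of 0.0286 was the smallest that 4 against 4 grafts can give, but the gene did not pass over all genes (log2 fold change 0.77 ± 0.29, adjusted p = 0.527). Osm showed the same direction in the other macrophages (log2 fold change 0.77 ± 0.25, adjusted p = 0.842). Cd274, which encodes PD-L1, had 728 against 685 CPM with an exact permutation p of 0.857, and WT replicate 4 at 494 CPM lay apart from the other WT grafts at 739, 739 and 768 CPM. Tgfb1 had 165 against 142 CPM (exact permutation p = 0.4), and H2-Aa, H2-Ab1 and H2-Eb1 had exact permutation p of 0.286, 0.314 and 0.171. Of these 8 genes, Osm alone was under 0.05 at day 10. Of the 15 leading genes, 0 were called at either day. Nos2 was at 260 to 299 CPM in mutant and 109 to 256 CPM in WT grafts at day 10. Like those of Osm, these values did not overlap, with an exact permutation p of 0.0286, but the gene did not pass over all genes (log2 fold change 0.41 ± 0.25, adjusted p = 0.743).

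The third comparison, day 17 against day 10 within a genotype, found many more genes, and these lists rest on cells from different mice and libraries. In WT grafts 135 genes were higher (1.77% of those tested) and 164 lower (2.15%) at day 17. The split depended on scaling, with 170 higher and 118 lower without TMM factors and 98 and 227 by DESeq2. In mutant grafts 365 genes were higher (4.79%) and 317 lower (4.16%). Of the genes higher in WT grafts 78 were also higher in mutant grafts (57.8% of the WT and 21.4% of the mutant genes), of the lower genes 74 (45.1% and 23.3%), and 0 were called in opposite directions. The WT and mutant contrasts share no graft, but each mouse carried a graft of both genotypes and 1 model was fitted to all groups. The overlap is therefore not that of independent experiments. The counts moved with single grafts. Without WT day 17 replicate 3 or 1 the WT count of 299 fell to 27 or 106, and without WT day 10 replicate 2 or 3 to 175 or 145. Without mutant day 17 replicate 2 the mutant count of 682 fell to 191.

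Several of the genes with the smallest p were chaperones that fell, a grouping made after their values were seen and for which no list was tested. Hspa1b, an inducible Hsp70 chaperone, was at 520, 583, 430 and 575 CPM in WT grafts at day 10 and at 2.24 and 18.1 CPM at day 17 (log2 fold change -5.52 ± 0.54, adjusted p = 2.94e-05). In mutant grafts it was at 1348, 1188, 1120 and 451 CPM and then at 22.6, 33.3 and 56.3 CPM (log2 fold change -4.73 ± 0.42, adjusted p = 4.27e-06). The days did not overlap in either genotype. Hspa1a, a nearly identical copy whose reads counting could divide between the pair, had log2 fold changes of -4.58 in WT and -5.38 in mutant grafts, and the Hsp40 cochaperone Dnaja1 of -3.01 and -3.47, all of them called. Hsph1, Hsp90aa1, Hspd1 and Dnajb1 also fell in both genotypes. The other macrophages showed the same, with log2 fold changes of -4.19 and -2.96 for Hspa1b and of -3.81 and -3.21 for Dnaja1. The difference between the populations was not called for either gene (adjusted p of 0.571 and 0.12 for Hspa1b and 0.619 and 0.85 for Dnaja1).

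Part of the type I interferon response genes fell in both genotypes. Of 36 type I interferon response genes tested, 12 fell and 0 rose in WT grafts and 20 fell and 0 rose in mutant grafts, with medians of -1.04 and -1.45, against 0.02 and -0.0011 over all genes. Isg15 was at 1065, 715, 917 and 270 CPM in WT grafts at day 10 and at 188 and 110 CPM at day 17 (log2 fold change -2.41 ± 0.43, adjusted p = 0.00496, and 0.102 without WT day 17 replicate 3). In mutant grafts it went from 1091, 599, 667 and 760 CPM to 84.8, 143 and 125 CPM (log2 fold change -2.71 ± 0.39, adjusted p = 4.04e-04). Oasl1, an inhibitor of Irf7 translation, fell by 3.08 in WT and by 2.29 in mutant grafts, and this held when any graft was left out. Ifit1, Ifi27l2a, Zbp1 and Xaf1 were among the others called in at least 1 genotype.

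Of 43 Ifn-gamma response genes, 1 fell in WT grafts (Irf8, -1.03 ± 0.25, adjusted p = 0.0294, lost without either WT day 17 graft at adjusted p of 0.152 and 0.149) and 16 fell in mutant grafts, with 0 higher in either and medians of -0.38 and -0.83. In WT grafts 1 of 43 was thus close to the 2.15% of all genes that fell. Irf1, an interferon-induced transcription factor, was at 805, 639, 739 and 591 CPM in mutant grafts at day 10 and at 430, 218 and 427 CPM at day 17, without overlap (log2 fold change -1.01 ± 0.19, adjusted p = 0.00343). In WT grafts it was at 610 to 692 CPM and then at 450 and 494 CPM (log2 fold change -0.51 ± 0.21, adjusted p = 0.188). In mutant grafts the high-affinity Fc receptor Fcgr1 fell by 1.72. That Irf1 was called in 1 genotype and not in the other is not a difference between them, since the test of that difference had an adjusted p of 0.668.

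**Figure D3:**
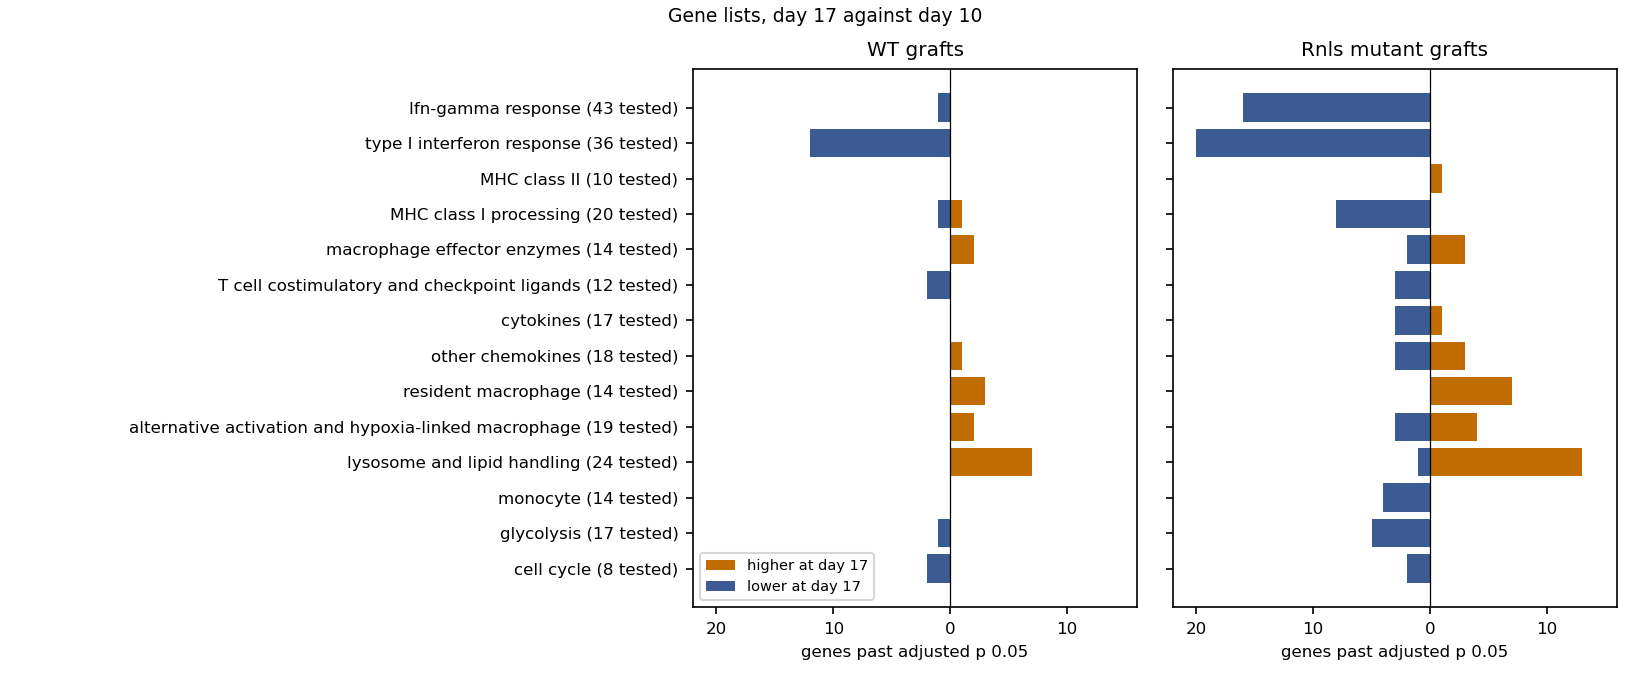
Number of genes past an adjusted p of 0.05 at day 17 against day 10 in each of 14 gene lists, with genes higher at day 17 to the right of 0 and genes lower to the left, for WT (left panel) and mutant grafts (right panel). Of 36 type I interferon response genes 12 and 20 fell, and of 24 genes of lysosome and lipid handling 7 and 13 rose.

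Cxcl9 itself and most of the genes that led the cluster did not pass between days. The clusters were made from these genes and this one was chosen by Cxcl9, so cells low in them could fall outside it. The lack of a call therefore cannot show that their levels held in macrophages. Over all macrophages Cxcl9 had log2 fold changes of -1.89 in WT and -2.64 in mutant grafts (edgeR adjusted p of 0.00129 and 4.46e-05). Nos2 had -1.70 and -3.43 there (0.0319 and 2.65e-04). The values that follow are for the cluster. Cxcl9 had a log2 fold change of -0.91 ± 0.40 in WT (adjusted p = 0.222, with a call only where the filter on low counts was left out) and of -0.31 ± 0.34 in mutant grafts (adjusted p = 0.635). Cxcl10 had -0.87 ± 0.42 and -1.06 ± 0.38 (adjusted p of 0.266 and 0.0914), Nos2 -0.05 ± 0.32 and -0.71 ± 0.30 (0.962 and 0.156), and Il1b -0.03 ± 0.39 and -0.50 ± 0.35 (0.989 and 0.409). The values for Nos2 and Il1b in WT grafts turned positive without TMM factors. Of the 15 leading genes, 4 fell in both genotypes, namely Gm15056, AA467197, Isg15 and Tma16, and Inhba, Ass1 and Il1rn fell in mutant grafts. Gm15056 went from 3555, 1837, 2437 and 1769 CPM to 539 and 533 CPM in WT grafts (log2 fold change -2.23 ± 0.35, adjusted p = 0.00203, and 0.0543 without WT day 17 replicate 3) and from 3766, 2045, 2744 and 2681 CPM to 531, 323 and 875 CPM in mutant grafts (log2 fold change -2.32 ± 0.30, adjusted p = 1.68e-04). Gm15056, the gene with the largest ratio for the cluster, was thus well below its day 10 range in all 5 day 17 grafts tested. In WT grafts the calls for AA467197 and Tma16 were lost without either day 17 graft, with adjusted p of 0.0767 and 0.0783 for AA467197 and of 0.201 and 0.149 for Tma16. Inhba was at 946 to 1208 CPM and then at 271, 182 and 732 CPM in mutant grafts (log2 fold change -1.40 ± 0.36, adjusted p = 0.0199, and 0.0775 or 0.112 without mutant day 17 replicate 1 or 2).

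**Figure D4:**
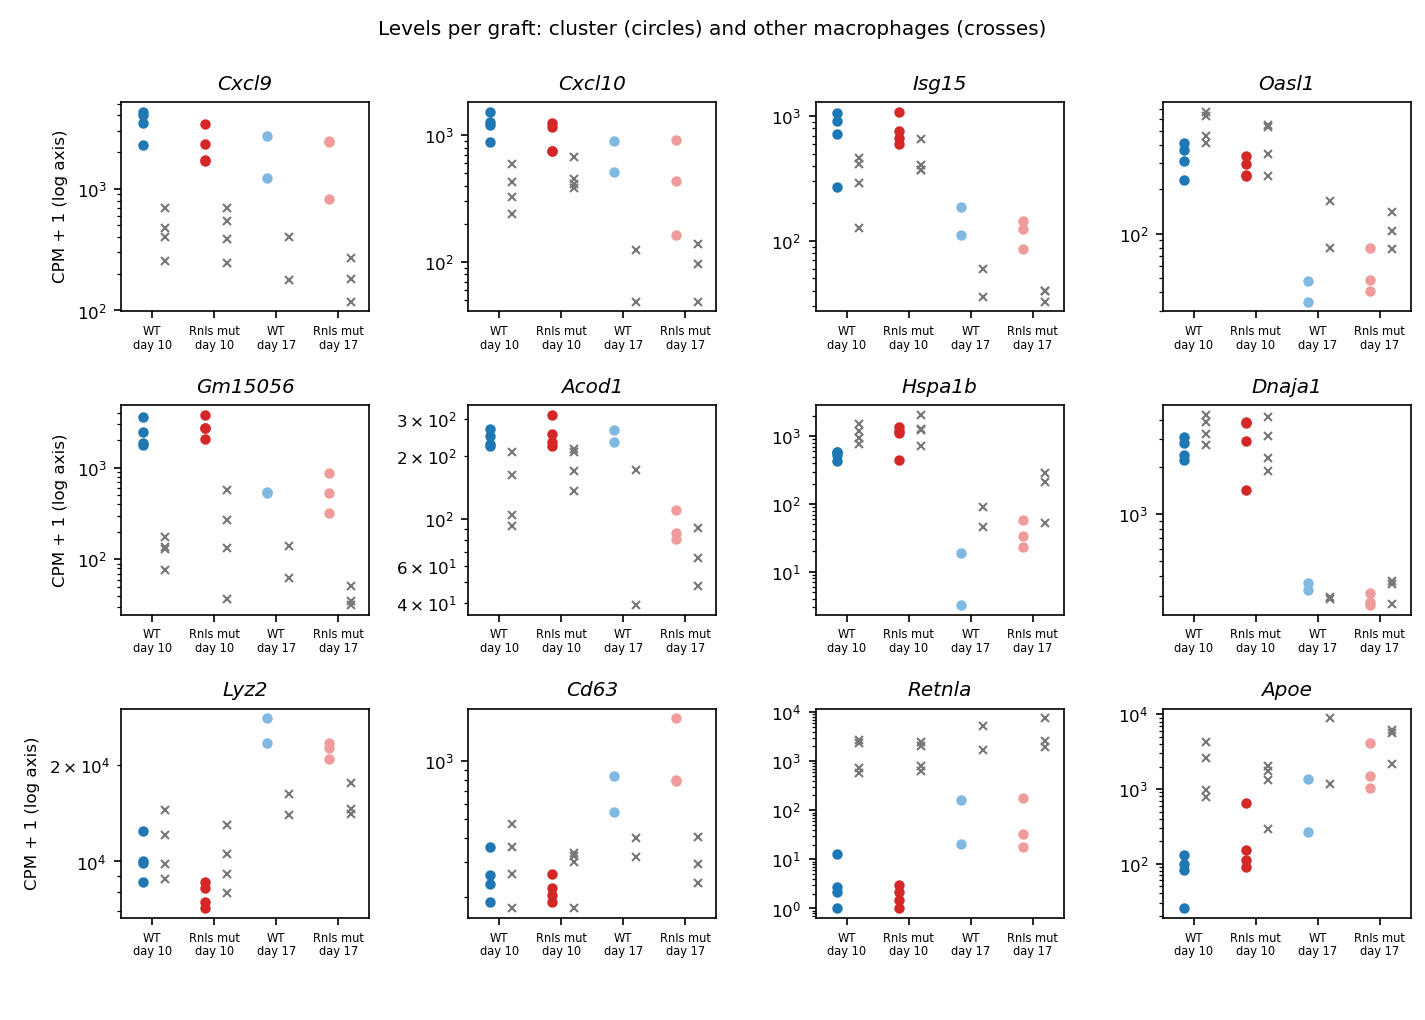
Levels of 12 genes in each graft as CPM + 1 on log axes, with coloured circles for cluster 4 and grey crosses for the other macrophages of the same graft. Hspa1b, Oasl1 and Isg15 are lower at day 17 in both populations, Lyz2 is at 20936 CPM or more in the circles of day 17, and Cxcl9 overlaps between the groups.

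Lyz2 and part of the genes of lysosomes and lipid handling rose. Lyz2, lysozyme, went from 8614, 12413, 10039 and 9916 CPM to 27990 and 23440 CPM in WT grafts (log2 fold change 1.26 ± 0.14, adjusted p = 7.25e-05, and 0.364 when all grafts with a single cell or more were kept). In mutant grafts it went from 7469, 8289, 8646 and 7130 CPM to 23448, 22554 and 20936 CPM (log2 fold change 1.47 ± 0.13, adjusted p = 4.27e-06). The days did not overlap in either genotype. In the list of 24 lysosome and lipid handling genes, 7 rose and 0 fell in WT grafts and 13 rose and 1 fell (Ctsc, cathepsin C) in mutant grafts, with medians of 0.50 and 1.02. Trem2, a lipid-sensing receptor, was at 54.0, 30.3, 17.3 and 13.7 CPM and then at 197 and 188 CPM in WT grafts (adjusted p = 0.00568, and 0.0638 without WT day 17 replicate 3). In mutant grafts it was at 67.4, 99.8, 47.1 and 37.2 CPM and then at 237, 602 and 196 CPM (log2 fold change 2.44 ± 0.39, adjusted p = 0.00105). Cd63, a tetraspanin of late endosomes, rose by 1.36 in WT (adjusted p = 0.0139, and 0.178 without WT day 17 replicate 1) and by 2.30 in mutant grafts (adjusted p = 5.82e-05). Abca1, the cholesterol exporter, Ctsd, cathepsin D, and Lipa, the lysosomal acid lipase, were among the others that rose in both.

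Some genes of resident macrophages also rose. Of 14 resident macrophage genes tested, 3 rose in WT grafts (Apoe, Selenop and Mrc1) and 7 in mutant grafts (these, C1qa and others), and 0 fell. The 14 are the members of the list of 21 that passed the filter on low counts. Apoe was at 97.2, 24.1, 128 and 80.1 CPM in WT grafts at day 10 and at 1358 and 263 CPM at day 17 (log2 fold change 3.25 ± 0.75, adjusted p = 0.0223, with 0.405 without WT day 17 replicate 1 and 0.0616 without WT day 10 replicate 2). In mutant grafts it was at 113, 642, 152 and 89.7 CPM and then at 1040, 4197 and 1491 CPM (log2 fold change 3.16 ± 0.67, adjusted p = 0.00648, and 0.0706 without mutant day 17 replicate 2). All 5 day 17 grafts were above the WT day 10 range, with 1 mutant day 10 graft, at 642 CPM, above WT day 17 replicate 3. Of 19 alternative activation and hypoxia-linked genes, 2 rose and 0 fell in WT grafts and 4 rose and 3 fell in mutant grafts, with medians of 0.32 and -0.34. Fn1, fibronectin, one of this list, rose in both genotypes, but its log2 fold change in WT grafts was -0.41 without WT day 17 replicate 3, against 2.92 with it, and that of Mrc1 was -0.07 against 1.52. Selenop in WT grafts had a log2 fold change of 1.32, and its call was lost without either day 17 graft (adjusted p of 0.0899 and 0.2).

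Monocyte, chemokine and cytokine genes gave calls in mutant grafts. Of 14 monocyte genes, 0 were called in WT grafts and 4 fell in mutant grafts, among them Plac8, Ms4a4c and Ly6c2, with medians of 0.13 and -0.996. Ly6c2, which marks inflammatory monocytes, was at 501, 429, 317 and 351 CPM in mutant grafts and then at 215, 17.9 and 122 CPM (log2 fold change -1.98 ± 0.46, adjusted p = 0.0108, and 0.0511 without mutant day 17 replicate 2). Ccl2 and Ccl7, ligands of Ccr2, and Ccl4, a chemokine of activated macrophages, fell in mutant grafts (log2 fold changes of -1.82, -2.69 and -2.58), whereas Ccl22, Ccl6 and Ccl9 rose there. Hmox1, heme oxygenase 1, fell by 2.01 in mutant grafts, from 890, 827, 848 and 396 CPM to 102, 159 and 282 CPM (adjusted p = 5.72e-04). In WT grafts Hmox1 stood at 377 to 511 CPM and then at 443 and 407 CPM, and the difference between genotypes in this change had an adjusted p of 0.194. In WT grafts Cxcl2, a neutrophil chemokine, rose from 1475, 1240, 1490 and 748 CPM to 4331 and 2045 CPM (log2 fold change 1.30 ± 0.35, adjusted p = 0.0463), and this was lost in 10 of 20 alternatives, with 0.519 without WT day 17 replicate 1.

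Of 10 MHC class II genes 0 were called in WT grafts, and Ctss, the protease that trims the invariant chain, rose by 0.81 in mutant grafts. H2-Aa was at 6476 to 7669 CPM in WT day 10 grafts and at 7951 and 6931 CPM at day 17. Of 20 genes of MHC class I processing, H2-D1 rose and Psme1, a proteasome activator subunit, fell in WT grafts, with H2-D1 lost in 13 alternatives (highest adjusted p = 0.272) and Psme1 without WT day 17 replicate 3 (adjusted p = 0.133). In mutant grafts 8 fell, among them Psme2, Psme1, Tap2 and Psmb8. Cd274 fell by 0.62 in mutant grafts, from 702, 742, 727 and 741 CPM to 610, 410 and 448 CPM (adjusted p = 0.0233, with 0.134 and 0.0738 without mutant day 17 replicate 2 and 3). Pdcd1lg2, which encodes PD-L2, and Lgals9, galectin 9, fell in both genotypes. Of 14 effector enzymes, Lyz2 and Cybb, a subunit of the phagocyte oxidase, rose in WT grafts, and in mutant grafts Lyz2, Ncf1 and Cybb rose and Acod1 and Ass1 fell. Of 17 glycolysis genes, Hk2 fell in WT grafts, and 5 fell in mutant grafts, among them Tpi1, Pfkfb3, Pkm and Gapdh, with a list median of -0.61.

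Markers of other cells also moved with day. Klrk1 and Gzma, genes of NK cells, were at 25.4 to 56.4 and 11.7 to 33.7 CPM in the day 10 grafts and at 2.56 to 20.1 and 0 to 6.71 CPM at day 17. Klrk1 fell in both genotypes and Gzma in mutant grafts, and the call for Klrk1 in WT grafts was lost without the cells that held T and NK cell UMIs (adjusted p = 0.11) and without WT day 17 replicate 3 (0.309). For Gzma in mutant grafts it was lost without replicate 2 or 3 of day 17 (0.108 and 0.0542). Igkc, the immunoglobulin kappa chain of B cells, rose from 2.40, 2.68, 2.30 and 1.95 CPM to 33.6 and 20.7 CPM in WT grafts, a call lost without either day 17 graft (adjusted p of 0.115 and 0.0783), and it was at 0 in all 4 mutant grafts at day 10 and at 5.65, 71.7 and 20.8 CPM at day 17. Ighm was also called in mutant grafts. The part of RNA from other cells in the day contrasts was not tested beyond leaving out those cells, without which 246 genes were called in WT and 601 in mutant grafts.

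**Figure D5:**
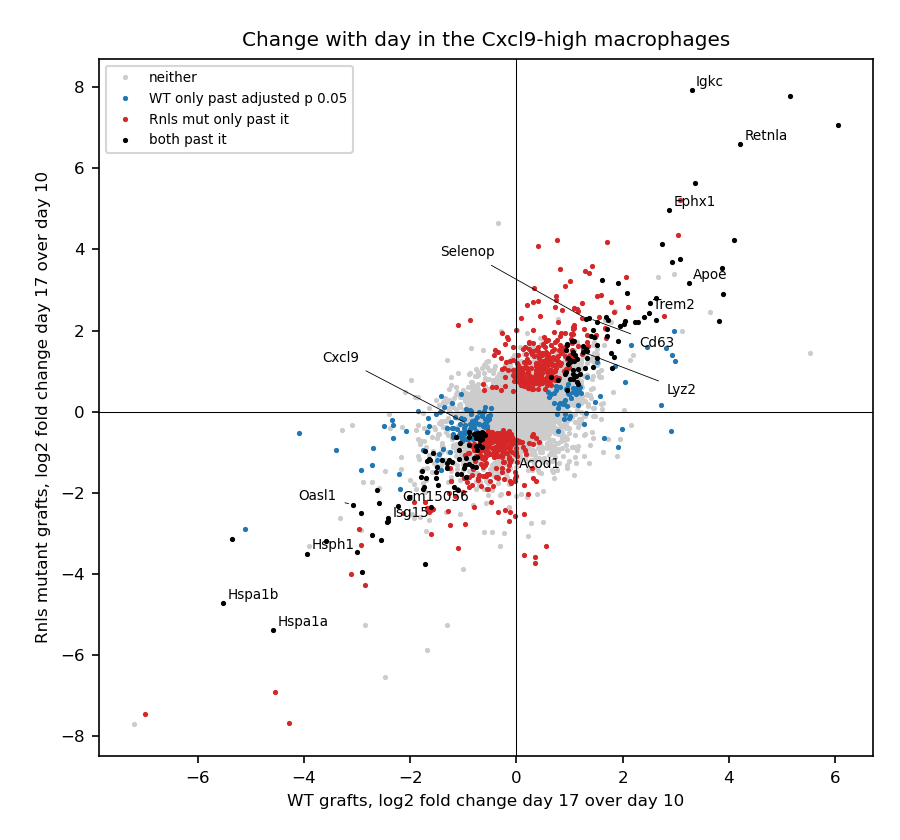
Log2 fold changes of day 17 over day 10 in cluster 4, WT grafts on the horizontal and mutant grafts on the vertical axis, for the 7620 genes tested, coloured by which contrast passed an adjusted p of 0.05. The 152 genes past it in both (black) lie in the lower left or the upper right, with Hspa1b at -5.52 and -4.73, and Cxcl9 lies near the centre.

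The last comparison asks whether these changes differed from those in the other macrophages of the same grafts. For the genotype contrasts 0 genes were called at day 10 (0%, 396 at an unadjusted p under 0.05) and 0 at day 17 (0%, 287 unadjusted) of 8705 genes tested with edgeR, with no other tool run. For the day contrast 2 genes were called in WT grafts (0.0230%) and 35 in mutant grafts (0.402%), 24 more positive and 11 more negative in the cluster. Retnla was called in both. In the cluster it went from 1.80, 11.6, 1.15 and 0 CPM to 159 and 19.4 CPM in WT grafts and from 0.468, 1.15, 2.05 and 0 CPM to 17.0, 174 and 32.6 CPM in mutant grafts. The other macrophages were at 575 to 2653 CPM at day 10 and at 1693 to 7457 CPM at day 17, so the cluster remained lower than they were in every graft. The difference was 3.33 ± 0.56 in WT (adjusted p = 0.0282) and 4.74 ± 0.72 in mutant grafts (adjusted p = 0.00885), but in the mutant day 10 grafts it rests on at most 1 UMI per graft, and in WT grafts it was lost in 6 alternatives, with an adjusted p of 0.357 without WT day 17 replicate 1.

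Cd63 rose by 2.30 in the mutant grafts of the cluster and had 0.03 ± 0.29 in the other macrophages (difference 2.16 ± 0.39, adjusted p = 0.0247). Prdx1, a peroxiredoxin, rose by 0.97 in the cluster and fell by 0.91 in the other macrophages (difference 1.83 ± 0.28, adjusted p = 0.00885). Irf1 fell by 1.01 in the cluster and had -0.08 ± 0.15 in the others (difference -0.96 ± 0.20, adjusted p = 0.0428), and Lyz2 rose by 1.47 against 0.50 ± 0.20 (difference 0.93 ± 0.19, adjusted p = 0.0394). Arg1 had -2.07 ± 0.87 in the cluster and 2.10 ± 1.12 in the others, neither of them called, and the difference of -4.35 ± 0.94 was (adjusted p = 0.0448). For Cxcl9 the difference of 1.00 ± 0.36 in mutant grafts was not called (adjusted p = 0.233). The mutant count of 35 was 0 without mutant day 10 replicate 1, 2 without mutant day 10 replicate 2, 1 without mutant day 17 replicate 2 and 8 without mutant day 17 replicate 1, it was 53, 59 and 59 without mutant day 17 replicate 3, WT day 17 replicate 1 and WT day 17 replicate 3, and it was 19 without the cells that held T and NK cell UMIs. None of the 20 named genes of this contrast was kept under every alternative.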

How the data were processed

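CD45+ cells of the grafts were profiled in 4 libraries with 10x Genomics 3′ v3.1 chemistry and hashtag antibodies. The authors ran Cell Ranger on mm10 (versions are not given in the sources used here) and deposited filtered UMI counts per gene and cell, with a table of hashtags, Seurat clusters and cell types, which were used as deposited. Droplets were super-loaded, how doublets were removed is not given in the sources used here, and no doublet caller was run on the deposited cells. Members with at least 2 UMIs of T and NK cell markers were left out in an alternative. The cluster, the gene lists and the tests were chosen with earlier results of these data known.

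UMI counts were summed per graft (library and hashtag) over the members. Grafts with at least 10 members were tested, which left out 3 grafts with 19 members, using edgeR 4.0.16 (quasi-likelihood test, TMM factors, filterByExpr) in R 4.3.3, with 1 model over the 4 groups and Benjamini-Hochberg adjustment at 0.05. The difference from the other macrophages was fitted with the graft as a block. Shares and levels were compared by two-sided exact permutation tests (SciPy 1.17.1), for which 3 against 2 grafts cannot go below 0.2. No label says which grafts came from the same mouse, and p-values measure the spread between these grafts. Members had 952674 to 4278041 UMIs per library, and intervals cover counting error only. Named genes were the 15 with the highest ratio of CPM (plus 10) over the other macrophages among those with at least 50 CPM, at most 10 genes per direction and contrast with the smallest p, at most 4 per direction and list, and 8 genes in any case (Cxcl9, Cxcl10, Cd274, Tgfb1, Osm, H2-Aa, H2-Ab1 and H2-Eb1). The procedure was tested on simulated data. Alternatives were DESeq2 1.42.0, no TMM factors, no filter on low counts, other minimum cell numbers, the hashtag number as a block and leaving out each graft; leaving out the WT day 17 library was chosen after seeing the data. CPM are not divided by gene length and levels are not compared between genes. Some items are not reported here.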

Additional observations from a re-analysis of the deposited data

Results flagged for a closer look

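In the comparison of the cluster with the other macrophages, 23 differences for the named genes reported here passed an adjusted p of 0.05 by the edgeR test of the difference itself. Each value is the log2 change from day 10 to day 17 in the cluster minus that in the other macrophages of the same grafts. In WT grafts these were Retnla (3.33) and Ms4a4c (2.34), which had -0.35 in the cluster and -2.73 in the other macrophages. The call for Ms4a4c was lost without WT day 17 replicate 3 (adjusted p = 0.0855) and that for Retnla in 6 alternatives. Retnla was low in the members, at 25.6 CPM over both days, and RNA from other macrophages was not tested.

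In mutant grafts the more positive differences in the cluster were those of Ighm (4.99), Retnla (4.74), Serpinb6a (4.14), Tmem176a (2.71), Timp2 (2.40), Coq7 (2.32), Cd63 (2.16), Prdx1 (1.83), Lipa (1.61), Lgals1 (1.54), Cd68 (1.10) and Lyz2 (0.93). Ighm, an immunoglobulin heavy chain gene of B cells, stood at 0.468, 1.15, 0 and 2.56 CPM in the mutant day 10 grafts and at 5.65, 33.3 and 14.8 CPM at day 17, so its value rests on few UMIs, and B cell markers as a whole summed to at most 3.85 CPM and then to 11.3 to 105 CPM there.

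The more negative differences in mutant grafts were those of Arg1 (-4.35), Arrdc3 (-2.71), Gm34084 (-1.62), Zfas1 (-1.62), Ankrd44 (-1.33), Cd83 (-1.32), Fosl2 (-1.26), Btg1 (-0.99) and Irf1 (-0.96).

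Cd274 in the WT day 10 grafts had 1 graft apart from the others, at 494 CPM against 739, 739 and 768 CPM, with a gap of 0.895 of the range. Of 56 groups of 4 grafts examined in this way 1 stood out, and chance alone gives about 1 in 20.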

How the results depend on the processing

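The calls between genotypes depended on the filter and the tool, and those between days on single day 17 grafts. Without the filter on low counts, 108 genes were called between genotypes at day 10, 102 at day 17, 93 over both days and 109 for the difference between days, 594 between days in WT and 1024 in mutant grafts, and 41, 13, 97 and 241 for the difference from the other macrophages (day 10, day 17, WT and mutant), and Cxcl9 and Osm were called between genotypes at day 10 and Cxcl9 between days in WT grafts. DESeq2 called 28, 10, 6 and 29 genes in the 4 genotype contrasts. With a single cell or more per graft, 1 gene was called between genotypes at day 10 and 1 for the WT difference from the other macrophages, Slpi in WT grafts had -0.26 and Cxcl9 0.45. Without T and NK UMIs 19 genes were called for the mutant difference. With the hashtag number as a replicate block the 4 genotype contrasts had 76, 6, 6 and 24 calls, and Osm an adjusted p of 0.0198 at day 10. Same-numbered grafts correlated at 0.333, -0.0467, -0.0210 and 0.0513 at day 10 and 0.0576 and 0.0513 at day 17. Differently numbered grafts of day 10 correlated at -0.247 to 0.143, and not every graft correlated best with its own number. These values cannot decide whether the numbers pair the grafts, since 1 same-numbered pair was the highest and the others were near 0. At day 17 only 2 WT grafts were tested, so their deviations from the group mean mirror each other. Leaving out 1 graft gave 1 to 12 calls between genotypes at day 10, 0 to 2 at day 17, 0 to 3 over both days, 0 to 3 for the difference between days, 27 to 438 between days in WT and 191 to 720 in mutant grafts, and 1 to 14 and 0 to 59 for the WT and mutant difference from the other macrophages. The share differed by 10.5 to 21.6 points at day 10 and by -4.55 to 0.485 points at day 17, and 0 to 0 of the 8 fixed genes were under 0.05, where 3 against 4 grafts cannot go below 0.0571. Signs turned when 1 graft was left out for Cd274 between genotypes at day 10 (-0.058 to 0.12, negative without WT replicate 4), between days in WT grafts for Ccl5 (-0.41 to 0.050, at 0.00062 without day 10 replicate 2 and highest without day 17 replicate 3), Nos2 (-0.60 to 0.29, at 0.078, 0.084 and 0.29 without day 10 replicates 1 and 2 and day 17 replicate 1), Il1b (-0.18 to 0.13, at 0.030, 0.13 and 0.033 without the same grafts), Mcemp1 (-1.98 to 0.37), Mrc1 (-0.067 to 2.13) and Fn1 (-0.41 to 3.71), the last group turning without day 17 replicate 3, and in mutant grafts for Cxcl9 (-0.57 to 0.054, positive without day 17 replicate 2). Without TMM factors Nos2 had 0.031 and Il1b 0.048 in WT grafts. Without the WT day 17 library, 2 genes were called between genotypes at day 10, 684 between days in mutant grafts and 42 for the mutant difference. Of the named calls between days, 45 of 83 in mutant and 12 of 49 in WT grafts were kept under every alternative. The cause of these changes was not tested. The day 17 contrasts rest on 5 grafts with at least 10 members, and what depth adds to this was not tested.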
